A study of Mus musculus with 10 samples.

Results

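Ribosome biogenesis genes were followed in cultured natural killer cells (NKC) of mice with and without the transcription factor Runx3. The set held 39 genes for RNA polymerase I, small nucleolar ribonucleoproteins (snoRNPs) and the factors that build the small (40S) and large (60S) ribosomal subunits. A gene entered through a probe set that carried its symbol alone, and was read from the brightest such probe set over the 10 arrays. All 39 genes were found, and all 39 reached log2 5 in at least 2 arrays, the condition for testing. Of 18194 genes with such a probe set on the array, 9391 met it.

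NKC were taken from spleens of ICR mice aged 6 weeks, wild-type (WT, Runx3 +/+) or Runx3-/- (KO), each array from its own mouse. They were enriched by negative selection and, per the study's methods, sorted for DX5, then grown for 7 days with human IL-2 at 1000 u/ml or with mouse IL-15. The labels do not make clear whether that dose also holds for IL-15. There were 3 WT and 3 KO arrays in IL-2, and 2 WT and 2 KO arrays in IL-15. Values are log2 signals (GC-RMA, a background-corrected summary of the probes of a probe set) from Affymetrix mouse expression arrays, and the number of arrays limits their precision.

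Ribosomes are made in the nucleolus. RNA polymerase I copies the ribosomal RNA precursor, box C/D and H/ACA snoRNPs methylate and pseudouridylate it, and large protein complexes fold, cut and export the maturing subunits. The genes of this programme are known targets of Myc proteins and are known to be raised when lymphocytes are stimulated to grow.

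Several properties of the arrays touch every result. In the deposited values the sum of the WT and KO array of the same number was the same for all numbers of a cytokine, to within 0.00014, so differences between pairs had been removed before deposit. WT and KO therefore show the same SD within a cytokine, an array is low by as much as its partner is high, and KO was compared with WT within the 5 pairs. All 6 IL-2 arrays had male-like and all 4 IL-15 arrays female-like transcripts: Xist, the RNA of the inactive X, lay between 4.64 and 5.37 in IL-2 and between 14.28 and 14.66 in IL-15, and Y-linked Eif2s3y at 7.31 or more in IL-2 and at 2.43 or less in IL-15. The labels give the sex as male or female, so cytokine and sex cannot be told apart. The brightest Runx3 probe set was lower in KO by 0.58 in IL-2 and 1.09 in IL-15 (log2, not called, limma adjusted p = 0.254 and 0.293), and its position relative to the deletion is not known here. In IL-2 the groups overlapped, with KO higher in pair 1 by 0.097 and lower in the other pairs. Of the 11 NKC markers with a probe set, 10 were tested and Itga2, which encodes DX5, stayed at 2.45 or less in group means.

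The clearest pattern was lower signal of the assembly genes in IL-15. In WT NKC 29 of 39 genes fell in IL-15 relative to IL-2 and 0 rose, against 18.7% of all tested genes called lower and 29.4% called higher. The 29 include Noc3l, which met the condition for testing through IL-2 arrays alone. The 39 genes were chosen with earlier results of these data known, so their share beside that of all tested genes is a description. Here and below, a called gene met both an adjusted p under 0.05 and 1.5-fold or more (limma, here with 4 group means). The median difference was -1.43 for the 39 genes and 0.18 for all tested genes (log2, IL-15 minus IL-2). In KO NKC 21 genes fell and 1 rose, against 22.5% and 23.6% of all tested genes, with a median of -1.31 beside -0.08. Because pair differences had been removed, the p-values of these cytokine comparisons are too small by an unknown amount. Counted without a test, every IL-15 array lay below every IL-2 array in 33 of 39 genes in WT and 24 of 39 in KO, beside 28.9% and 36.5% of all tested genes. Noc3l is in both counts. The removal of pair differences also narrows each group, so this separation too came more easily by an unknown amount. In bulk RNA, fewer cells of a kind and less RNA per cell cannot be told apart.

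**Figure D1:**
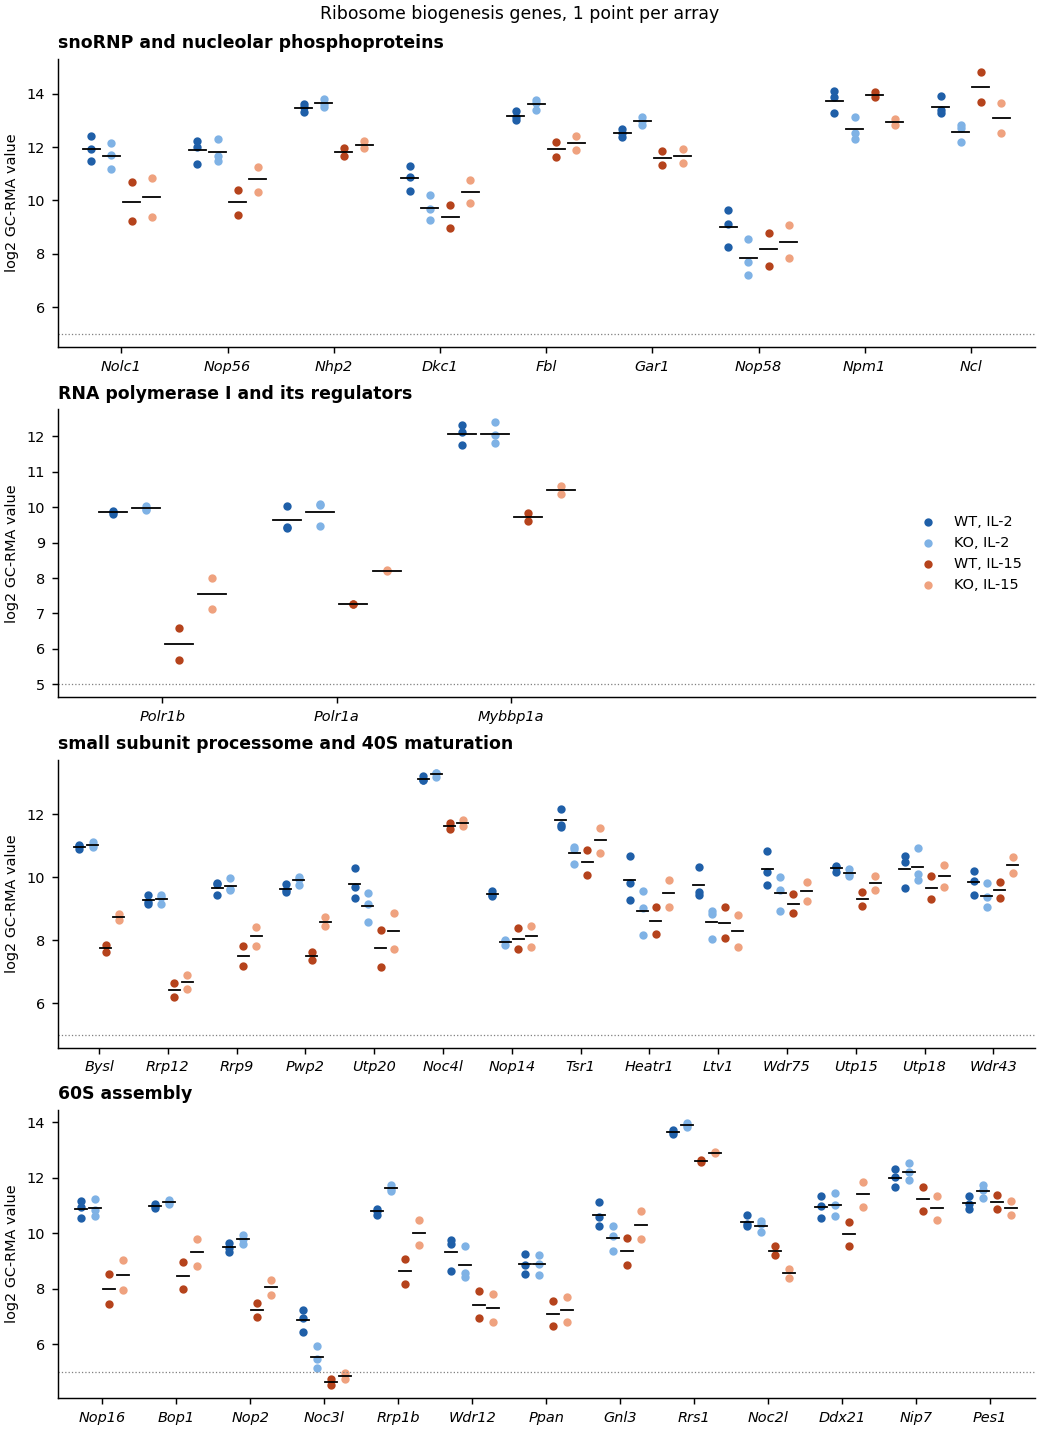
Log2 GC-RMA values of the 39 genes on each array, grouped by role, with 1 point per array and a bar at each group mean (3 arrays per genotype in IL-2, 2 in IL-15); the dotted line marks log2 5. In most panels the IL-15 points lie below the IL-2 points in both genotypes, while for Ncl, Npm1, Pes1, Wdr43, Nop58 and Utp18 they overlap in WT.

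The 3 RNA polymerase I genes had the lowest median of the 4 role groups, -2.36 in WT and -1.65 in KO. Polr1b, a large catalytic subunit, was at 9.88, 9.90 and 9.80 in WT and 9.96, 9.93 and 10.04 in KO with IL-2, and at 5.70 and 6.59 in WT and 8.0 and 7.11 in KO with IL-15. The cytokine groups were far apart in each genotype, and in IL-15 both KO arrays lay above both WT arrays. The difference was -3.72 ± 0.30 (SE) in WT, a 13.1-fold fall (adjusted p = 4.5e-05), and -2.42 ± 0.30 in KO (adjusted p = 0.000347).

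Polr1a, the largest subunit, was at 9.41, 10.04 and 9.44 in WT and 10.08, 9.45 and 10.05 in KO with IL-2, against 7.26 and 7.28 in WT and 8.22 and 8.20 in KO with IL-15. It fell 5.13-fold in WT (adjusted p = 0.000148) and 3.14-fold in KO (adjusted p = 0.000847). Mybbp1a, a nucleolar regulator of ribosomal RNA synthesis, went from 11.75 to 12.33 in WT with IL-2 down to 9.61 and 9.84 with IL-15, and from 11.82 to 12.39 down to 10.61 and 10.38 in KO. Its fall was 2.34 ± 0.22 in WT and 1.59 ± 0.22 in KO. All 3 genes fell in both genotypes.

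Among 14 other polymerase I factors the direction was mixed: in WT 5 fell and 4 rose, with a median of 0.03. Taf1b, a subunit of the polymerase I initiation factor SL1, rose by 1.66 and Ttf1, the transcription termination factor, by 1.62 in WT. Twistnb, a polymerase I subunit, rose by 1.23 in WT and 1.86 in KO. Twistnb and Polr1b, both subunits of the enzyme, thus moved in opposite directions.

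The bases before the start of Polr1a and Mybbp1a are shown as regulatory context for this group (RefSeq, build GRCm38.p6, 5′ to 3′ on the gene's strand, ending at the base before the start). Capitals mark any of 3 kinds of letters searched on both strands: the E-box CACGTG that Myc and Max bind, the RUNX word TGTGGT with its variants spelled TGTGGC, or else TGCGGT, or else TGCGGC, and the ETS core CCGGAAG.
Polr1a, chr6:71908803-71909052, + strand: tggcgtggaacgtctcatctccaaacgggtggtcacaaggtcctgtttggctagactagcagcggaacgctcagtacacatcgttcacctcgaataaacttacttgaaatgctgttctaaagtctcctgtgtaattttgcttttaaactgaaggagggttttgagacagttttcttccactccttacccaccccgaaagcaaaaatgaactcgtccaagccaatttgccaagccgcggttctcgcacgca
Mybbp1a, chr11:72441077-72441326, + strand: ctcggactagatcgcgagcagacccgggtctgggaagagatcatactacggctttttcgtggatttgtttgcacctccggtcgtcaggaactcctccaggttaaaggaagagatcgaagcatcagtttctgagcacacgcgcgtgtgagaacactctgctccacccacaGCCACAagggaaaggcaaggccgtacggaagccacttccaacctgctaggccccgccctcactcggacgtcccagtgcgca
None of these letters occurred before the start of Polr1a, and Mybbp1a held 1 RUNX word, 81 bases before its start.

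In the snoRNP and nucleolar group, 6 of 9 genes fell in WT and 4 of 9 in KO. Nop56, a core protein of box C/D snoRNPs, was at 12.01, 12.23 and 11.37 in WT and 11.67, 11.46 and 12.31 in KO with IL-2, and at 9.45 and 10.40 in WT and 11.27 and 10.32 in KO with IL-15. Every IL-15 array was below every IL-2 array of its genotype, with a fall of 1.95 ± 0.42 in WT (adjusted p = 0.00502) and a difference of -1.02 in KO that was not called (adjusted p = 0.0726). Fbl, the methyltransferase of the same particles, was at 13.11, 13.36 and 13.01 in WT and 13.66, 13.40 and 13.76 in KO with IL-2, and at 11.64 and 12.18 in WT and 12.42 and 11.88 in KO with IL-15. It fell by 1.25 ± 0.23 in WT and 1.46 ± 0.23 in KO.

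Nhp2 and Gar1, core proteins of H/ACA particles, also fell in both genotypes, Nhp2 by 1.66 and 1.54 and Gar1 by 0.94 and 1.31 in WT and KO. Nolc1, a chaperone of snoRNPs, fell by 1.98 and 1.54. Dkc1, the pseudouridine synthase of H/ACA particles, fell in WT only by the test (1.43 ± 0.40, adjusted p = 0.0166, against a KO difference of 0.62). The difference between its 2 values was not called (adjusted p = 0.357).

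Nop58, the partner of Nop56, did not pass: it was at 9.13, 9.64 and 8.27 in WT and 7.71, 7.20 and 8.57 in KO with IL-2, and at 7.54 and 8.79 in WT and 9.09 and 7.83 in KO with IL-15. These groups overlapped. The abundant nucleolar phosphoproteins nucleolin (Ncl) and nucleophosmin (Npm1) did not pass either. Ncl was at 13.38, 13.89 and 13.27 in WT and 12.70, 12.18 and 12.81 in KO with IL-2, and at 13.68 and 14.80 in WT and 13.66 and 12.54 in KO with IL-15. Npm1 was at 13.88, 14.08 and 13.26 in WT and 12.52, 12.32 and 13.14 in KO with IL-2, and at 13.86 and 14.06 in WT and 13.04 and 12.84 in KO with IL-15. IL-2 and IL-15 arrays overlapped for both genes in both genotypes, and the cytokine differences in WT were 0.73 (95% interval -0.24 to 1.69) for Ncl and 0.22 (-0.45 to 0.90) for Npm1.

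Of the small subunit genes, 10 of 14 fell in WT, while in KO 5 fell and 1 rose. Bysl, needed for maturation of the 40S subunit, was at 11.04, 10.98 and 10.88 in WT and 10.97, 11.02 and 11.12 in KO with IL-2, and at 7.63 and 7.85 in WT and 8.84 and 8.63 in KO with IL-15. No group came near another across cytokines, and the fall was 3.23 ± 0.14 in WT (9.37-fold, adjusted p = 3e-06) and 2.30 ± 0.14 in KO. Rrp12, which acts in export of the preribosome, was at 9.22, 9.43 and 9.15 in WT and 9.36, 9.16 and 9.44 in KO with IL-2, and at 6.21 and 6.65 in WT and 6.88 and 6.44 in KO with IL-15. The difference was -2.84 ± 0.20 in WT and -2.66 ± 0.20 in KO, and the KO value less the WT value was 0.18 (95% interval -0.87 to 1.23).

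Rrp9, a protein of the U3 snoRNP, Pwp2, a subunit of the UTP-B complex, and Noc4l, the partner of Nop14, also fell in both genotypes, by 2.17, 2.14 and 1.5 in WT and 1.61, 1.32 and 1.55 in KO. Of this group, 5 genes were called in WT and not in KO: Utp20, Nop14, Tsr1, Wdr75 and Utp15, with WT falls of 0.97 to 2.03. None of the differences between genotypes was called. The UTP-A subunit Heatr1 (-1.30 in WT, 0.57 in KO), the 40S export factor Ltv1 (-1.21, -0.30) and the UTP-B subunit Utp18 (-0.59, -0.28) were called in neither genotype. Wdr43, a subunit of the UTP-A complex that links transcription and processing, was at 9.38, 9.04 and 9.82 in KO with IL-2 and at 10.65 and 10.14 in KO with IL-15. It rose in KO by 0.98 ± 0.31 (adjusted p = 0.0289), and in WT, at 9.87, 10.21 and 9.43 against 9.33 and 9.84, the groups overlapped. The call for Wdr43 was lost without IL-2 pair 1 or 2 or without either IL-15 pair (adjusted p from 0.0557 to 0.204).

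Of the large subunit genes, 10 of 13 fell in WT and 9 of 13 in KO. Nop16, a nucleolar pre-60S factor, was at 10.95, 11.16 and 10.54 in WT and 10.84, 10.62 and 11.25 in KO with IL-2, and at 7.44 and 8.55 in WT and 9.04 and 7.93 in KO with IL-15. It fell by 2.89 ± 0.42 and 2.42 ± 0.42. Nop2, a methyltransferase of large subunit ribosomal RNA, was at 9.46, 9.66 and 9.34 in WT and 9.81, 9.61 and 9.93 in KO with IL-2, and at 6.98 and 7.5 in WT and 8.30 and 7.78 in KO with IL-15. Its groups were well separated by cytokine, with a fall of 2.25 ± 0.22 in WT and 1.74 ± 0.22 in KO.

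The upstream bases of Nop2 are shown because, among the members called lower that had a RefSeq window, it was the one with an E-box before its start (same source, build and capitals as above).
Nop2, chr6:125131633-125131882, + strand: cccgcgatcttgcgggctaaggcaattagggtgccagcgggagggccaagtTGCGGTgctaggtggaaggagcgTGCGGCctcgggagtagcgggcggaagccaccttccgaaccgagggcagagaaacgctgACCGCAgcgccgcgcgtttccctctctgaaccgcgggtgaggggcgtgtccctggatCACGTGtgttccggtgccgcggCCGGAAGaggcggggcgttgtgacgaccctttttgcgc
The E-box began 60 bases and the ETS core 38 bases before the start, and the 3 RUNX words 199, 176 and 117 bases before it.

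Bop1, Pes1 and Wdr12, which form the PeBoW complex of pre-60S particles, did not move alike. Bop1 was at 10.91, 11.04 and 10.99 in WT and 11.20, 11.07 and 11.12 in KO with IL-2, and at 7.99 and 8.95 in WT and 9.79 and 8.83 in KO with IL-15. Bop1 fell by 2.51 ± 0.32 in WT and 1.81 ± 0.32 in KO, and Wdr12 by 1.91 ± 0.50 and 1.55 ± 0.50. Pes1 was at 11.05, 11.34 and 10.86 in WT with IL-2 and 10.87 and 11.38 with IL-15, and the WT difference was 0.04 (95% interval -0.52 to 0.60). In KO, where Pes1 was at 11.56, 11.27 and 11.75 with IL-2 and 11.16 and 10.65 with IL-15, the groups did not overlap and the difference of -0.62 was not called (adjusted p = 0.0626). The dimmer probe set of Bop1 gave 0.15 in WT and -0.93 in KO, and that of Pes1 -0.50 and -0.39, so the contrast within the complex depends on the probe sets read.

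Noc3l, another pre-60S factor, was at 7.23, 6.93 and 6.44 in WT with IL-2 and 4.53 and 4.75 with IL-15. The IL-15 values were under log2 5, so the fall in WT was at least 3.64-fold, taken from the IL-2 mean against log2 5. Noc3l was the member that met the condition for testing through IL-2 arrays alone, so this fall is a description. Noc2l, its partner in a pre-60S complex, went from 10.67, 10.35 and 10.25 to 9.21 and 9.54 in WT and from 10.03, 10.35 and 10.45 to 8.73 and 8.40 in KO. It fell by 1.05 ± 0.20 and 1.71 ± 0.20. Ppan, Rrp1b and Rrs1 also fell in both genotypes, by 1.05 to 2.17 in WT and 1.0 to 1.63 in KO. Gnl3 (nucleostemin) fell in WT alone by the test, with the difference between genotypes not called (adjusted p = 0.427), and Ddx21, a nucleolar helicase, passed in neither. The probe set of Ddx21 read here gave -0.98 in WT and 0.38 in KO, and its dimmer probe set -2.17 and -1.30. Nip7, a pre-60S factor, fell in KO by 1.31 ± 0.36 (adjusted p = 0.0154), while its WT difference of -0.78 was not called (adjusted p = 0.0991).

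**Figure D2:**
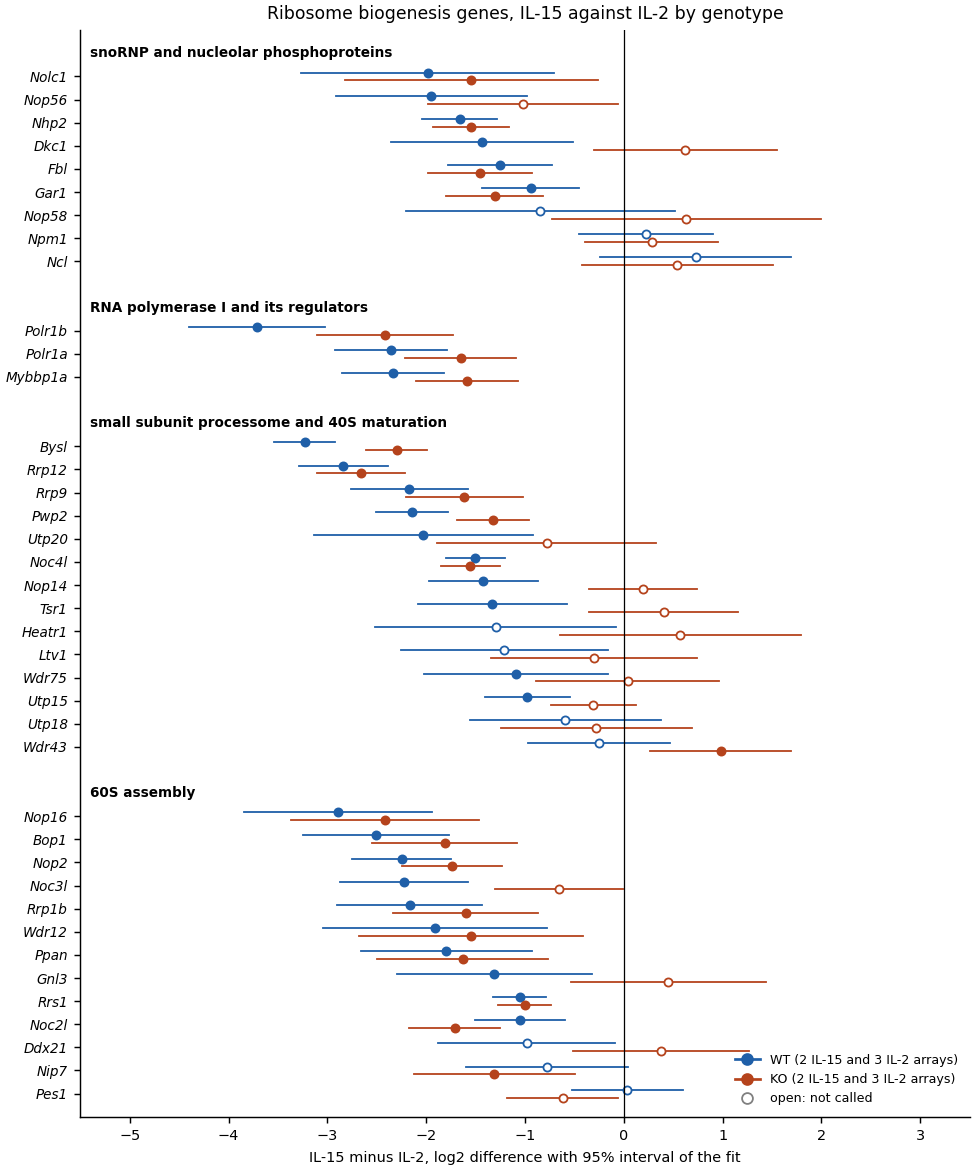
IL-15 minus IL-2 differences (log2) of the 39 genes in WT (blue) and KO (red), by role, with the 95% interval of the fit; filled points were called and open points were not. Of the WT points, 36 of 39 lie below 0 (42.3% of all tested genes did) and 29 are filled, and of the KO points 28 lie below 0 (53.6% of all tested genes) and 21 of these are filled.

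Across roles, 20 of the 39 genes (51.3%) were called lower in both genotypes, against 12.9% of all tested genes, and 9 were called lower in WT alone. The 2 genotypes are not independent here, since the arrays of a pair were adjusted together. The genes were also chosen with earlier results known, so the excess over all tested genes is a description. With 14 alternative settings each, which changed the filter, the scaling, the probe sets, the thresholds or the pairs used, 22 genes were called lower in WT and 17 in KO under every one. Noc3l is among the 22. The share of all tested genes called lower under every setting was not counted. Of the 23 genes with several probe sets above the floor, all probe sets had the same sign in 21 in WT (not Bop1 and Pes1) and in 20 in KO (not Ddx21, Noc3l and Npm1).

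Other genes of the pathway were taken from fixed lists. Of 123 further assembly factors tested, 53 fell and 12 rose in WT (median -0.62), and 46 fell and 22 rose in KO (median -0.46). Among those called lower in WT were Tbl3 (-2.68), of the small subunit processome, Wdr18 (-2.48), a pre-60S factor, and Dhx37, which met the condition for testing through IL-2 and is given no size, since its IL-15 means were under log2 5. In KO the lowest were Wdr18 (-2.38), Tbl3 (-2.20) and the snoRNP assembly ATPase Ruvbl2 (-2.09), and the highest the helicase Ddx52 (2.48), Twistnb (1.86) and the exosome helicase Mtrex (1.75). By kind, 5 of 9 other snoRNP factors, 19 of 44 other small subunit factors, 19 of 43 other large subunit factors and 5 of 13 exosome genes fell in WT. The proteins of the ribosome itself did not share the pattern: of 36 cytosolic ribosomal protein genes tested, 1 fell and 3 rose in WT, with a median of 0.18 beside 0.18 for all tested genes. In KO 2 of the 36 fell and 0 rose, with a median of -0.06.

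**Figure D3:**
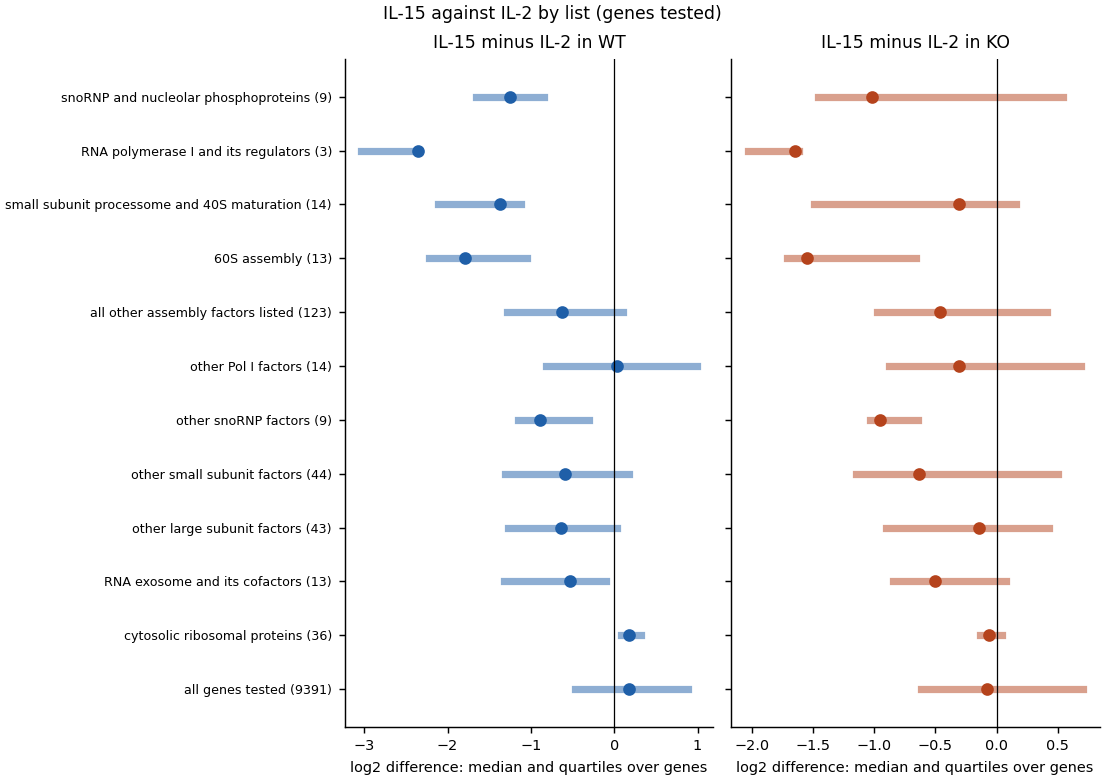
Median (point) and quartiles (bar) of the IL-15 minus IL-2 difference (log2) over the genes of each list, in WT at left and KO at right, with the number of genes tested in parentheses. The 4 role groups of the 39 genes have WT medians from -2.36 to -1.25, while the ribosomal proteins and all tested genes have medians of 0.18.

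Myc and Mycn, known activators of this programme, were called lower in IL-15 in both genotypes, as were 12.9% of all tested genes. Myc was at 10.79, 11.35 and 11.18 in WT and 12.28, 11.73 and 11.89 in KO with IL-2, and at 9.66 and 9.70 in WT and 10.85 and 10.80 in KO with IL-15. It fell in IL-15 by 1.43 ± 0.21 in WT (adjusted p = 0.00072) and by 1.14 ± 0.21 in KO (adjusted p = 0.00226). Mycn, which was singled out after its values were seen, was at 12.17, 12.04 and 12.47 in WT and 12.30, 12.44 and 12.01 in KO with IL-2, and at 7.91 and 8.18 in WT and 10.35 and 10.08 in KO with IL-15. It fell by 4.18 ± 0.19 in WT and 2.04 ± 0.19 in KO, and in IL-15 it was higher in KO by 2.16 ± 0.34 (adjusted p = 0.0432). Averaged over both cytokines, Myc and Mycn were higher in KO by 1.0 (adjusted p = 0.0294) and 1.09 (adjusted p = 0.02). For Mycn this average joined 0.02 in IL-2 (adjusted p = 0.964) with the 2.16 in IL-15. Myc was higher in KO by 0.86 in IL-2 and 1.14 in IL-15, neither called. In the same average the median of the 39 genes was 0.14 and 2 were called, against 17.2% of all tested genes. No part of Myc or Mycn in the other genes' values was tested.

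The E-box was looked for in the windows of 300 bases around the start (250 before, 50 after) that RefSeq gave for 34 of the 39 genes. Of these genes 8 (23.5%) held it, against 12.3% of all tested genes with a window and 8.09% of all genes with one. Stretches of 30 bases around each are shown, with the E-box in capitals (RefSeq, GRCm38.p6, 5′ to 3′ on the gene's strand).
Ltv1, chr10:13193092-13193121, - strand: gccctgtggaccCACGTGtggagctgccgg
Mybbp1a, chr11:72441347-72441376, + strand: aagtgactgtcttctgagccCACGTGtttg
Nop2, chr6:125131811-125131840, + strand: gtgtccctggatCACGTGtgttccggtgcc
Pes1, chr11:3963965-3963994, + strand: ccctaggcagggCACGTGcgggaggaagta
Tsr1, chr11:74898092-74898121, + strand: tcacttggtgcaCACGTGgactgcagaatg
Utp18, chr11:93885769-93885798, - strand: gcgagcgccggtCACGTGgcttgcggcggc
Utp20, chr10:88826765-88826794, - strand: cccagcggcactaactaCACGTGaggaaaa
Wdr43, chr17:71616220-71616249, + strand: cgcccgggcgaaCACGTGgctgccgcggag
It lay before the start in Nop2 and Utp18 and 3 to 41 bases after it in the other genes, and no match overlapped another motif searched. Of the 8 genes with an E-box in the window, 4 fell in IL-15 in WT, and of the 26 without, 21 did. The ETS core occurred in 38.2% of the 34 genes against 23% of all tested genes with a window, and any of the 4 RUNX words in 55.9% against 54.7%. A match of letters is a description and not a site of binding.

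Loss of Runx3 changed few of these genes by the test. In IL-2, 2 of 39 genes were called in KO relative to WT, both lower, against 19.7% of all tested genes called in either direction and 9.17% called lower. The median KO minus WT difference was 0.01, beside 0.11 for all tested genes. In IL-15 0 of 39 genes were called (limma with pairs as blocks) against 1.3% of all tested genes. At an unadjusted p under 0.05 and 1.5-fold, 5 genes passed in IL-2, all lower, and 6 in IL-15, all higher, against 36.1% and 13.5% of all tested genes.

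Nop14, which acts with Noc4l in the small subunit processome, was at 9.41, 9.57 and 9.44 in WT and at 7.99, 7.84 and 7.96 in KO with IL-2. The groups were far apart, with KO lower in each pair by 1.41, 1.73 and 1.47, a fall of 1.54 ± 0.31 (SE; 2.91-fold, adjusted p = 0.0184). With IL-15 Nop14 was at 7.72 and 8.38 in WT and 8.46 and 7.80 in KO, close to the KO level in IL-2, and the groups overlapped. The KO difference in IL-15 less that in IL-2 was 1.62 ± 0.49, which was not called (adjusted p = 0.32). Leaving out any of the 3 IL-2 pairs kept the size of the fall of Nop14 (1.44 to 1.60) and lost the call (adjusted p from 0.0504 to 0.0853).

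Noc3l in IL-2 was at 7.23, 6.93 and 6.44 in WT and at 5.15, 5.45 and 5.95 in KO. KO was lower in each pair, by 2.08, 1.47 and 0.49, a fall of 1.35 ± 0.35 (adjusted p = 0.0381). In IL-15 the Noc3l values of both genotypes were under log2 5, at 4.53 and 4.75 in WT and 4.97 and 4.75 in KO, and no fold was taken. Without IL-2 pair 1 or 2 the call of Noc3l was lost (adjusted p = 0.176 and 0.13), and over its probe sets together the difference was -1.12 (adjusted p = 0.0653).

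The RUNX words in the windows of these 2 genes are shown for context, in capitals (RefSeq, GRCm38.p6, 5′ to 3′ on the gene's strand).
Noc3l, chr19:38819458-38819487, - strand: acaggcggaGCCACAagacgccggcgatca
Nop14, chr5:34660243-34660272, - strand: aagtcgaggaagTGTGGCctcctgggagtt
Nop14, chr5:34660303-34660332, - strand: gtctgaggatacTGTGGCggctctcgggac
They began 172 and 112 bases before the start of Nop14 and 241 bases before that of Noc3l. Such a word occurred in 54.7% of all tested genes with a window.

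Nucleophosmin and nucleolin were the members lower in KO in every pair of both cytokines. Rrp1b, Polr1b and Rrs1 were the members higher in KO in every pair, and Polr1b and Rrs1 were not called over both cytokines. The share of all tested genes with 1 direction in every pair of both cytokines was not counted. Npm1 was lower by 1.36, 1.76 and 0.12 in IL-2 and 0.82 and 1.22 in IL-15. Its mean KO minus WT difference over both cytokines was -1.05 ± 0.28, one of 2 genes called in that comparison (adjusted p = 0.0473; 17.2% of all tested genes were called). Ncl was lower by 0.69, 1.71 and 0.46 in IL-2 and 0.02 and 2.26 in IL-15, and its mean difference of -1.05 ± 0.37 was not called (adjusted p = 0.101). Averaged over all its probe sets, the Ncl difference was -0.44 over both cytokines and -0.36 in IL-15, where 1 of the 4 Ncl probe sets above the floor was higher in KO, by 0.56.

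Rrp1b, a pre-60S and nucleolar phosphatase-regulating protein, was the other gene called over both cytokines. It was at 10.66, 10.81 and 10.89 in WT and 11.75, 11.60 and 11.52 in KO with IL-2, and at 8.15 and 9.09 in WT and 10.49 and 9.56 in KO with IL-15. KO was higher in all 5 pairs, and the mean difference was 1.12 ± 0.30 (adjusted p = 0.0466). The calls of Npm1 and Rrp1b both ended when arrays were centred on their medians (adjusted p = 0.0536 and 0.0517). The call of Npm1 held without IL-2 pair 3 and that of Rrp1b without IL-15 pair 2, and each was lost without any other pair. Without IL-15 pair 1 the difference of Rrp1b was 0.65. Averaged over all probe sets of the gene, the differences were 0.70 for Rrp1b (adjusted p = 0.0696) and -1.27 for Npm1 (adjusted p = 0.0539). The other Rrp1b probe sets gave 0.22 and -0.10 in IL-2.

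Of the remaining core genes, Nop56 differed between KO and WT by -0.34, -0.77 and 0.94 in the IL-2 pairs and by 1.82 and -0.08 in the IL-15 pairs. Nop58 differed by -1.42, -2.44 and 0.30 in IL-2 and by 1.55 and -0.96 in IL-15, and Fbl by 0.54, 0.04 and 0.75 in IL-2 and by 0.78 and -0.29 in IL-15. The pairs disagreed in direction for each of these genes in at least 1 cytokine, and none was called.

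The pairs themselves were unlike each other. The median KO minus WT difference over the 39 genes was -0.16, -0.58 and 0.30 in IL-2 pairs 1, 2 and 3, with 23, 31 and 8 genes lower in KO. In IL-15 it was 1.01 in pair 1, with 35 genes higher in KO, and -0.09 in pair 2, with 25 genes lower. All tested genes had medians of 0.29, 0.01, 0.03, 0.02 and -0.05 in these pairs. Most members were lower in IL-2 pair 2 and higher in IL-2 pair 3 and IL-15 pair 1, with a more even split in the other pairs. The IL-15 median of 0.39 over the 39 genes became -0.09 without pair 1 and 1.01 without pair 2.

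**Figure D4:**
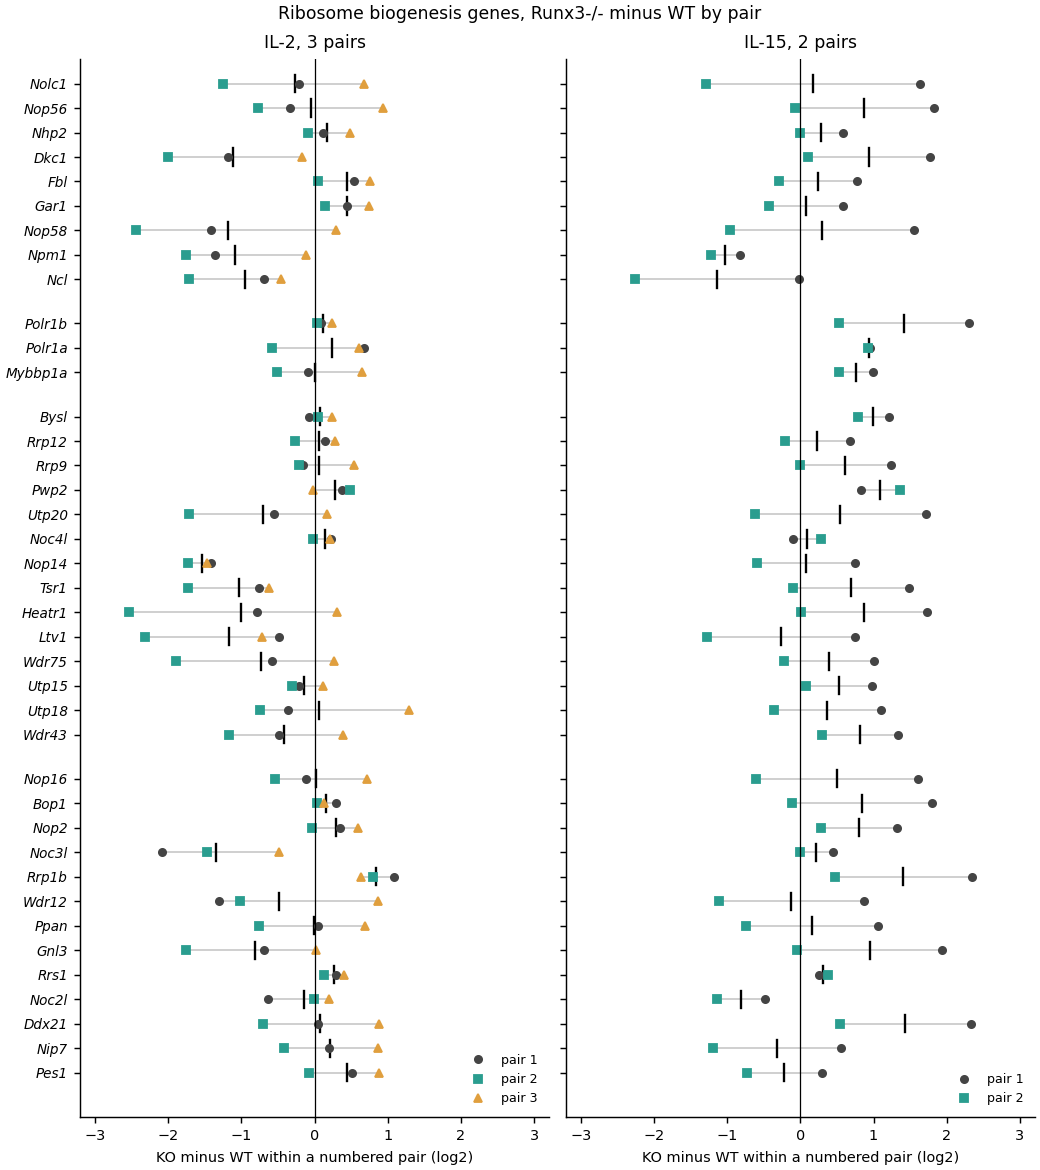
KO minus WT differences (log2) within each numbered pair for the 39 genes, in IL-2 (3 pairs) and IL-15 (2 pairs), with the mean as a vertical bar. Nop14 is lower in KO in all 3 IL-2 pairs at nearly the same size, and pair 1 lies to the right of pair 2 for most genes in IL-15.

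In IL-15 the largest KO minus WT differences were positive and none was called. Ddx21 was at 9.53 and 10.42 in WT and 11.86 and 10.96 in KO, a difference of 1.43 ± 0.54 (adjusted p = 0.301). Polr1b differed by 1.41 ± 0.44 (adjusted p = 0.21) and Rrp1b by 1.41 ± 0.46 (adjusted p = 0.233), with KO above WT in both pairs for each. Without IL-15 pair 1 the differences were 0.54 for Ddx21, 0.52 for Polr1b and 0.47 for Rrp1b, and the other probe set of Ddx21 gave 0.029. At the other end were Ncl (-1.14), Npm1 (-1.02) and Noc2l (-0.81), lower in KO in both pairs, and the second probe set of Noc2l gave 1.25.

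The KO difference in IL-15 was compared with that in IL-2 directly, and 0 of 39 and 0 of 9391 genes were called (limma with pairs as blocks; 0% of tested genes). At an unadjusted p under 0.05 and 1.5-fold 5 of the 39 genes passed, against 11.8% of all tested genes. The median was 0.67 for the set and -0.14 for all tested genes, and it was -0.0092 without IL-15 pair 1. The highest values were those of Dkc1 (2.06), Heatr1 (1.87) and Gnl3 (1.76), and the lowest those of Noc2l (-0.66), Pes1 (-0.66) and Nip7 (-0.53).

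Among the further assembly factors, 11 of 123 (8.94%) fell and 1 rose in KO with IL-2, beside 9.17% and 10.5% of all tested genes, and 0 were called with IL-15. Ddx52 and Ddx10, helicases of the small subunit processome, had differences of -2.16 ± 0.28 and -2.09 ± 0.38, and Gtpbp4, a GTPase of pre-60S particles, of -1.94 ± 0.32. The gene that rose was Pih1d1, a snoRNP assembly factor (1.03 ± 0.25). The ribosomal proteins held 1 called gene of 36, lower in KO.

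Of the markers of other cells, the summed B cell and mast cell lists did not overlap between genotypes in either cytokine. Between cytokines, the T cell sum was higher in IL-15 without overlap in both genotypes. So were the B cell sum in WT and the mast cell sum in KO. The part of any marker list in these results was not tested. Levels of a list are given as log2 of its summed signal. Of 6 B cell markers with a probe set Ighm alone was tested, Cd79a and Pax5 being under the floor. The B cell sum lay between 8.75 and 8.89 in WT and 10.89 and 11.03 in KO with IL-2. With IL-15 it lay between 9.82 and 10.739 in WT and 10.746 and 11.7 in KO, so the genotypes nearly touched. The Ighm difference of 0.94 between KO and WT in IL-15 was not called. Of 6 mast cell and basophil markers Mcpt8, Cpa3 and Kit were tested, with Fcer1a, Ms4a2 and Gata2 under the floor in all groups. The sum, carried by Mcpt8 and Kit, lay between 12.8 and 14.6 in WT and 10.9 and 11.6 in KO with IL-2. With IL-15 it lay between 13.8 and 14.1 in WT and 11.96 and 12.2 in KO.

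Of 7 T cell markers 4 were tested, with Cd4, Cd8a and Cd8b1 under the floor. Their sum lay between 11.4 and 12.05 in WT and 11.2 and 11.9 in KO with IL-2, and between 12.3 and 12.9 in WT and 12.6 and 12.8 in KO with IL-15. Of 8 myeloid markers 5 were tested, with Mpo, S100a8 and S100a9 under the floor, and the sum lay between 7.86 and 10.8 in WT and 7.89 and 10.9 in KO with IL-2, and between 9.39 and 10.2 in WT and 9.12 and 10.1 in KO with IL-15. Erythroid markers were under the floor in all groups (0 of 3 tested). The sum of the NKC markers, carried by bright genes such as Gzmb, also did not overlap between genotypes and was lower in KO. With IL-2 it lay between 17.30 and 17.57 in WT and 17.02 and 17.28 in KO. With IL-15 it lay between 17.41 and 17.47 in WT and 17.07 and 17.12 in KO. Of the 10 tested NKC markers 3 were called in KO with IL-2, beside 19.7% of all tested genes. In KO with IL-15 0 were called, beside 1.3%. Between cytokines 5 were called in WT and 1 in KO, beside 48% and 46.1% of all tested genes. In IL-2 the mean of Ncr1 was 9.58 in WT and 11.7 in KO, and that of Prf1 14.9 and 13.1.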

How the data were processed

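RNA of cultured NKC was hybridised to Affymetrix mouse expression arrays, 10 in all. The deposited values are log2 signals that the authors made with Partek, with GC-RMA background correction and normalization; tool versions are not given in the sources used here. Pair differences had been removed in them: the WT and KO arrays of a number summed to the same value within a cytokine, to within 0.00014 in IL-2 and 0.00013 in IL-15, and same-numbered arrays deviated oppositely (correlation -0.99). How this was done is not stated.

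Of 45101 probe sets, 34958 carried 1 symbol, 932 several and 9211 were not listed, and each gene was read from its brightest single-symbol probe set. Genes at log2 5 or more in at least 2 arrays were tested with limma 3.58.1 in R 4.3.3 (lmFit, eBayes). KO was compared with WT with 5 pairs as blocks, and IL-15 with IL-2 over 4 group means, since each pair lies in 1 cytokine. Calls needed p under 0.05 after Benjamini-Hochberg adjustment over all genes tested, and 1.5-fold. The fits were tested on simulated data. Groups came from the sample titles and characteristics.

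The members and lists were chosen with earlier results of these data known. Any member could be named. Per-array values were due for members called in a comparison (up to 8 by size, otherwise the 3 highest and 3 lowest) and for Nop56, Nop58, Fbl, Ncl and Npm1, and those of Wdr43 were added. Of the pathway lists, the 3 highest and 3 lowest called genes could be named. Alternatives changed the pair term, filter, scaling, probe set, prior variance and thresholds, and left out each pair. Promoter windows were RefSeq's (GRCm38.p6), matched by symbol; Bop1, Fbl, Npm1, Rrp12 and Rrs1 had none.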

Additional observations from a re-analysis of the deposited data

Results flagged for a closer look

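Dkc1, the pseudouridine synthase of H/ACA particles, was singled out because all arrays of one cytokine moved opposite to those of the other. With IL-2 it was at 10.86, 11.27 and 10.36 in WT and 9.68, 9.27 and 10.18 in KO, lower in KO in each of the 3 pairs. With IL-15 it was at 8.98 and 9.81 in WT and 10.75 and 9.92 in KO, higher in KO in both pairs. The difference between these effects was 2.058 ± 0.712 (SE) and was not called in limma's fit (adjusted p = 0.357).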

How the results depend on the processing

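Among the 39 genes, the cytokine counts held: 27 to 33 genes were called in WT (29 reported) and 19 to 25 in KO (22 reported) under other settings, and 23 to 31 and 17 to 22 with a pair left out. Without IL-15 pair 1, Ncl was called higher in WT. With pairs as a random replicate block the counts were 33 and 25. That block used the correlation of -0.99 between same-numbered arrays. Every setting used the pair-adjusted arrays, so none could show how far the cytokine p-values are too small. The KO counts did not hold. Without the replicate block, in a fit that takes the adjusted arrays as independent, 7 genes were called in IL-2, 5 in IL-15, 7 in the mean of both cytokines and 5 in the difference of effects. With no filter on low values 0 were called in IL-2 and 0 in the mean, where all tested genes fell from 1851 to 842 calls and from 1613 to 642. At an unadjusted p the counts were 5, 6, 6 and 5. Centring on array medians left 0 in the mean, averaging probe sets left 1 in IL-2, and leaving out a pair gave 0 to 2 in IL-2, 0 in IL-15 and 0 to 1 in the mean. Calls over all genes in IL-2 were 537 without pair 1 and 1026 without pair 2; without the block they were 3803 in IL-2, 1321 in IL-15, 2889 in the mean and 1157 in the difference. Quantile normalization moved the median of all tested genes from 0.18 to -0.05 in WT and from -0.08 to -0.20 in KO, and 33 and 24 members were then called lower. The values that turned sign were not called in the reported fits. With a pair left out, KO minus WT ran from -0.56 to 0.30 for Nop56 in IL-2, and in IL-15 from -0.078 to 1.82 for Nop56, -0.96 to 1.55 for Nop58 and -0.29 to 0.78 for Fbl, the lowest of each without pair 1. In the mean of both cytokines it ran from -0.067 to 0.88 for Nop56 and -1.07 to 0.18 for Nop58, and the difference of effects from -1.41 to 0.34 for Nip7, -0.021 to 1.88 for Nop56, -0.74 to 0.33 for Fbl, -1.31 to 0.93 for Ncl and -0.28 to 0.54 for Npm1. The cytokine difference ran from -0.017 to 0.39 for Npm1 in WT and -0.021 to 1.1 for Ncl in KO. Averaged over probe sets, Noc2l in IL-15 was 0.22, and Ncl and Npm1 in the difference of effects 0.17 and -0.11. The causes were not tested. The number of arrays limits what the KO comparisons could show.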
